A study of Homo sapiens with 2 samples.

Results

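The 10 genes described here encode ATP-binding cassette (ABC) efflux pumps known from hepatocytes: ABCB1, ABCB4, ABCB11, ABCC1, ABCC2, ABCC3, ABCC6, ABCG2, ABCG5 and ABCG8. They were chosen by name and matched to the symbols in the deposited feature lists, where all 10 were found among 36601 genes. Their transcripts were followed in HepaRG, an established human hepatic line sold in a differentiated state, labelled as hepatocyte. The cells were cultured for 7 days, given vehicle (0.1% DMSO) for 24 h, and profiled by droplet 3′ single-cell RNA-seq. Both libraries, called replicate 1 and replicate 2, belong to this 1 vehicle group and carry the same biological replicate label, and the chemically stressed cultures of the study were not analysed here. Differences below are therefore between classes of cells within these libraries, and the p-values measure only the spread between 2 libraries, which may be technical.

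ABC pumps use ATP to move compounds out of the cell. In a hepatocyte, some sit in the canalicular membrane and load bile with bile salts, phospholipid, sterols and drug conjugates, and others sit in the basolateral membrane and return conjugates to blood. ABCB11 is the bile salt export pump, ABCB4 moves phosphatidylcholine into bile, and ABCG5 and ABCG8 pair into 1 sterol transporter. ABCB1 (P-glycoprotein), ABCC2 and ABCG2 export drugs and conjugates into bile. ABCC1 and ABCC3 are basolateral conjugate exporters, and ABCC6, also basolateral, is the pump whose loss causes pseudoxanthoma elasticum.

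Replicate 1 held 85475317 UMIs (unique molecular identifiers, 1 per captured transcript) in 4591 barcodes, and replicate 2 held 57246647 in 4998. After filtering, 4454 and 4894 cells remained, with medians of 17568 and 10407 UMIs; 10 barcodes occurred in both libraries. ALB-high cells, with at least 50 UMIs of albumin (ALB) per 10000, numbered 257 (5.77%) in replicate 1 and 357 (7.29%) in replicate 2. Dividing cells, with at least 10 UMIs of TOP2A, MKI67 and CENPF together per 10000, numbered 1435 and 1606. Remaining cells, under both thresholds, numbered 2713 and 2881, and the 49 and 50 cells over both thresholds entered no class.

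These classes are ranges of a per-cell score and not cell types: 130 and 149 cells lay at 25 to 50 UMIs of ALB per 10000, against 102 and 150 at 50 to 100. For the dividing score, 493 and 554 cells lay at 5 to 10 UMIs per 10000, against 657 and 746 at 10 to 20. The other hepatocyte markers moved with ALB: the summed level of the 16 markers without ALB was 13839 and 12865 CPM (UMIs scaled to a total of 1000000) in ALB-high cells, 1178 and 1302 CPM in remaining cells and 620 and 647 CPM in dividing cells. Remaining and dividing cells, most of a culture labelled hepatocyte, thus carried hepatocyte markers at a low level. In ALB-high cells the 12 mesenchymal markers summed to 59.3 and 70.2 CPM, against 267 and 273 CPM in remaining cells, and COL1A2 and THY1 were at 0. The 10 biliary and progenitor markers summed to 355 and 364 CPM in ALB-high cells and to 785 and 796 CPM in remaining cells. Only 3 of those 10 genes reached 5 CPM in either class, so the sums follow a few abundant genes. Of the 6 tested by edgeR, described below, 4 were called higher and 2 lower in ALB-high cells than in remaining cells. Over all genes tested, 23.9% were called higher and 24.2% lower. The 9 immune markers summed to 16.2 and 16.2 CPM in ALB-high cells and to 12.3 and 12.2 CPM in remaining cells, with PTPRC, CSF1R and LYZ at 0 in ALB-high cells. The 8 endothelial markers summed to 21.6 and 20.5 CPM in ALB-high cells, against 43.5 and 40.3 CPM in remaining cells. Median mitochondrial shares were 13.7% and 13.7% in ALB-high cells, 7.90% and 8.05% in dividing cells and 9.16% and 9.38% in remaining cells.

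Several of these genes are neighbours in the genome (GENCODE 29, GRCh38). ABCB4 and ABCB1 lie on the minus strand of chromosome 7 at chr7:87401697-87480435 and chr7:87503633-87713323, 23197 bases apart. ABCC1 (chr16:15949577-16143074, plus strand) and ABCC6 (chr16:16148928-16223522, minus strand) end 5853 bases from each other. ABCG5 (chr2:43812472-43838865, minus strand) and ABCG8 (chr2:43831942-43882987, plus strand) overlap by 6924 bases, and the start of each lies inside the other. The RefSeq start of ABCG8 used below, at 43838971, lies outside that overlap. The other members are ABCB11 (chr2:168915498-169031324, minus strand), ABCC2 (chr10:99782640-99852594, plus strand), ABCC3 (chr17:50634777-50692252, plus strand) and ABCG2 (chr4:88090264-88231322, minus strand). RefSeq promoter windows (GRCh38.p14) were at hand for 7 of the 10 members.

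Sequences are shown for genes on which the results below turn. ABCG5 and ABCG8 were both highest in ALB-high cells, and their RefSeq starts are separated by 131 bases. Whether this shared stretch has a part in their levels was not tested. The stretch is printed from the plus strand, chr2:43838835-43838975, with the bases between the ABCG5 start (left) and the ABCG8 start (right) in capitals.
ABCG5 and ABCG8: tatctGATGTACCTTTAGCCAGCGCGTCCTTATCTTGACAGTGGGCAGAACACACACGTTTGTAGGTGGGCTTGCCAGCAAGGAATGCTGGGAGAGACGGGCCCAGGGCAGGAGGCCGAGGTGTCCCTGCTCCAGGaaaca
ABCB11 stood at 1.55 and 1.43 CPM in ALB-high cells, which carried its known regulator NR1H4. Its promoter is printed from the minus strand, chr2:169031320-169031574. Capitals mark the closest match, with 2 mismatches, to the inverted repeat AGGTCANTGACCT that the NR1H4 heterodimer is known to bind. Both strands were searched, and 1.12% of 35116 RefSeq promoter windows of 300 bases hold a match as close. The capitals mark likeness of letters only. A bound site may lie elsewhere in the window, at a looser match, and binding was not tested. The ABCG5 window holds one equally close, AGGTCTGTGACCC, and 1 window each of ABCG2 and ABCC6 holds one with 3 mismatches, as do 10.6% of all windows at 3 or fewer.
ABCB11: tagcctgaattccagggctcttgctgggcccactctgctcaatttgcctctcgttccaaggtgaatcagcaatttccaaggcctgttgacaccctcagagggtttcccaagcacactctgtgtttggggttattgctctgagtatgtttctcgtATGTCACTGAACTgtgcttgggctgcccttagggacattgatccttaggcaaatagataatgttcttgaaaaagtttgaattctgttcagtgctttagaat
ABCB1 followed ALB most closely of the members, with r of 0.957 and 0.932 over the pools of cells described further on. The window at its downstream start is printed from the minus strand, chr7:87600880-87601134. Capitals mark both exact matches to CCAAT, one 238 bases before the start and one, read on the other strand as ATTGG, 79 bases before it. The window at the upstream start holds none, and 34.6% of all windows hold CCAAT on either strand. These matches describe letters and show no binding.
ABCB1: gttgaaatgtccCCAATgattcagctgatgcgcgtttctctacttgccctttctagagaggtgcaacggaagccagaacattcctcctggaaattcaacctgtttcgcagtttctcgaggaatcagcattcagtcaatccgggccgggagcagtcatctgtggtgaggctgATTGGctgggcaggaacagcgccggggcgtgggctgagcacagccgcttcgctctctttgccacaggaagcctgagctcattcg

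ALB-high cells carried more transcript of 9 pumps than remaining cells did, and less of ABCC1. By edgeR's quasi-likelihood test with Benjamini-Hochberg adjustment over all genes, the 9 were called higher and ABCC1 lower at an adjusted p below 0.05. Of all 19147 genes tested, 23.9% were called higher and 24.2% lower in that comparison, 48.1% in all. ABCB11, ABCG5 and ABCG8 passed the filter on low counts only through the ALB-high sums, so a difference was built into their entry and their calls add nothing. Of the 7 other members, 6 were called higher and 1 lower, and their median log2 fold change was 1.11, against -0.02 over all genes tested. With library totals in place of TMM scaling (edgeR's correction for a few very abundant genes), the median over all genes moved to -0.17 and the calls of these 7 members held. When the UMI totals left out mitochondrial genes, the calls of these 7 members also held. Fewer transcripts per cell and fewer cells with transcript cannot be told apart from these sums, and per-cell shares follow further on.

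**Figure D1:**
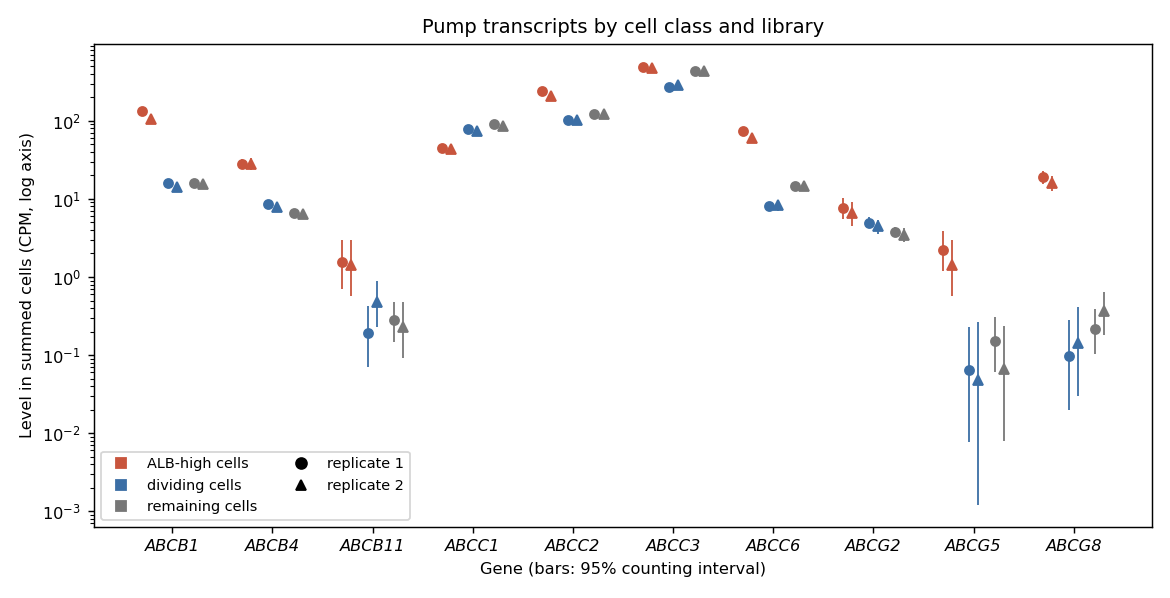
Level of each pump in the summed cells of each class, in CPM on a log axis, with circles for replicate 1, triangles for replicate 2 and bars for the 95% counting interval. ABCG8 stands at 19.0 and 16.0 CPM in ALB-high cells and under 0.4 CPM elsewhere, while ABCC1 is lowest in ALB-high cells. Levels of different genes are not comparable here.

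Among the canalicular drug exporters, ABCB1 stood in ALB-high cells at 132 CPM (replicate 1) and 106 CPM (replicate 2), at 16.2 and 15.7 CPM in remaining cells and at 16.2 and 14.3 CPM in dividing cells. The ALB-high libraries both lay far above the other classes, which overlapped. The log2 fold change against remaining cells was 3.06 (SE 0.07, n = 2 libraries, edgeR adjusted p = 1.01e-18). ABCC2 (MRP2), which moves bilirubin glucuronide into bile, was at 241 and 211 CPM in ALB-high cells, 123 and 121 CPM in remaining cells and 103 and 102 CPM in dividing cells, with no overlap between classes. Its log2 fold change was 1.04 (SE 0.05, edgeR adjusted p = 5.60e-14). ABCG2 (BCRP) was sparse, at 7.59 and 6.55 CPM in ALB-high cells, 4.94 and 4.44 CPM in dividing cells and 3.78 and 3.46 CPM in remaining cells. The order of its classes was the same in both libraries, and the log2 fold change against remaining cells was 1.11 (SE 0.20, edgeR adjusted p = 6.78e-05). With each cell thinned to 5000 UMIs, ABCG2 gave 0.81 and an edgeR adjusted p of 0.102, so its call was lost at that depth.

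Of the canalicular lipid pumps, ABCB4 was at 28.1 and 28.2 CPM in ALB-high cells, 8.57 and 7.92 CPM in dividing cells and 6.54 and 6.40 CPM in remaining cells. The 3 classes did not overlap, and the log2 fold change against remaining cells was 2.27 (SE 0.12, edgeR adjusted p = 6.77e-13). ABCG8 had 110 and 78 UMIs in ALB-high cells (19.0 and 16.0 CPM), 10 and 11 UMIs in remaining cells (0.214 and 0.363 CPM) and 3 and 3 UMIs in dividing cells (0.0963 and 0.143 CPM). Over both libraries its level in ALB-high cells was 64.6 times that in remaining cells (95% counting interval 41.0 to 107). The edgeR log2 fold change was 6.13 (SE 0.25), and 5.24 from replicate 2 alone as a ratio of CPM with 0.1 added, which lowers ratios of sparse genes. ALB-high cells, 6.82% and 8.57% of all UMIs, gave 84.6% and 77.2% of the UMIs of ABCG8.

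ABCG5, the partner of ABCG8, was far sparser: 13 and 7 UMIs in ALB-high cells (2.24 and 1.43 CPM), 7 and 2 in remaining cells (0.150 and 0.0660 CPM) and 2 and 1 in dividing cells. Its level in ALB-high cells was 16.0 times that in remaining cells (95% counting interval 6.98 to 40.0). The log2 fold change was 4.13 (SE 0.57), and 3.31 or 3.35 from 1 library alone with 0.1 CPM added. At full depth in ALB-high cells of replicate 1, 12 cells had a UMI of ABCG5, 54 had one of ABCG8 and 8 had both, where the product of the 2 shares gives 2.52 cells. In replicate 2 these were 7, 42 and 3 cells, and the product gives 0.824. With cells thinned to 5000 UMIs 1 cell had both in each library, against products of 0.164 and 0.300. Full-depth co-detection exceeded the product in 9 and 10 of the 10 pairs of pumps examined in ALB-high cells, and in 7 and 9 of 10 after thinning; cells of a class differ in depth, and its part was not tested. The genes overlap and the handling of strand in the counting is not given in the sources used here, so some reads could be shared between them.

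ABCB11, the bile salt pump, was barely detected in any class. It had 9 and 7 UMIs in ALB-high cells (1.55 and 1.43 CPM), 13 and 7 in remaining cells (0.278 and 0.231 CPM) and 6 and 10 in dividing cells (0.193 and 0.477 CPM). The ALB-high level was 5.77 times the remaining level (95% counting interval 2.80 to 11.7) and 4.88 times the dividing level (2.28 to 10.4). In replicate 2 alone the ratio to dividing cells was 3.00, with an interval of 0.970 to 8.74. UMIs of ABCB11 occurred in 8 of 257 and 5 of 357 ALB-high cells, or 3.11% (exact Clopper-Pearson 95% interval 1.35 to 6.04) and 1.40% (0.456 to 3.24).

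The basolateral pumps did not move as 1 group. ABCC6 was at 74.8 and 59.96 CPM in ALB-high cells, 14.6 and 14.7 CPM in remaining cells and 8.05 and 8.25 CPM in dividing cells. Its classes did not overlap, and the log2 fold change against remaining cells was 2.37 (SE 0.09, edgeR adjusted p = 3.01e-15). ABCC6 has near-identical pseudogene copies, so reads could be split or lost between them and its level is uncertain. ABCC3 (MRP3) was at 487 and 471 CPM in ALB-high cells, 433 and 434 CPM in remaining cells and 270 and 287 CPM in dividing cells. It rose in ALB-high cells by only 0.29 (SE 0.03, log2, edgeR adjusted p = 3.70e-07), and differed more between remaining and dividing cells. ABCC1 (MRP1), which exports glutathione conjugates in many tissues, ran the other way: 44.3 and 43.8 CPM in ALB-high cells, 78.2 and 73.3 CPM in dividing cells and 90.7 and 86.6 CPM in remaining cells. Its fold change was -0.87 (SE 0.07, log2, edgeR adjusted p = 4.19e-10).

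Between dividing and remaining cells the members went both ways. The dividing threshold rests on TOP2A, MKI67 and CENPF, so remaining cells may include cells in S phase and are not a resting class. Among remaining cells, all 10 proliferation markers tested were called higher in the high tercile of an S-phase score described below. In that tercile 27% of all genes were called higher. ABCB4 and ABCG2 were called higher, and ABCC1, ABCC2, ABCC3 and ABCC6 lower, by edgeR's quasi-likelihood test with Benjamini-Hochberg adjustment. Over all genes, 24.8% were called higher and 23.9% lower, so 6 calls among all 10 members stand near the 48.7% called in either direction. Of the 7 members that passed the filter without the ALB-high sums, 2 were called higher and 4 lower. The other members, ABCB11, ABCG5 and ABCG8, had few UMIs in both of these classes. The largest drops among the called members were ABCC6, with a log2 fold change of -0.80 (SE 0.09, edgeR adjusted p = 3.39e-07), and ABCC3, with -0.60 (SE 0.03, edgeR adjusted p = 3.39e-13). ABCB1 gave -0.01 (SE 0.08, edgeR adjusted p = 0.896). ABCB4 gave 0.40 (SE 0.10) and ABCG2 0.41 (SE 0.13), with edgeR adjusted p of 0.00217 and 0.0118. ABCC1 gave -0.18 (SE 0.04) and ABCC2 -0.21 (SE 0.04). With DESeq2 in place of edgeR, ABCB4, ABCC1 and ABCG2 lost their calls, which left 3. At a dividing threshold of 20 UMIs per 10000, ABCC1 gave -0.05 and ABCG2 0.10, and neither was called by edgeR (adjusted p = 0.375 and 0.601). With thinned cells ABCG2 gave 0.12 (edgeR adjusted p = 0.723). ABCB11, ABCG5 and ABCG8 were not called between these classes.

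Against dividing cells, ALB-high cells were higher in 6 and lower in 1 (ABCC1) of the 7 members that passed the filter without the ALB-high sums. ABCB11, ABCG5 and ABCG8 were called higher too, which their entry through those sums builds in. Of all genes, 27.3% were called higher and 29.2% lower by edgeR in that comparison, 56.6% in all. ABCC6 had a log2 fold change of 3.17 (SE 0.10) and ABCB1 one of 3.08 (SE 0.07). ABCC3 rose by 0.89 (SE 0.04), ABCC2 by 1.25 (SE 0.05) and ABCB4 by 1.87 (SE 0.12). ABCG2 gave 0.70 (SE 0.19, edgeR adjusted p = 0.00396), and its call was lost with thinned cells (adjusted p = 0.167) and without the 8% of cells with the most UMIs (adjusted p = 0.0749). ABCC1 gave -0.68 (SE 0.07). The values for ABCB11, ABCG5 and ABCG8 rest on 16, 3 and 6 UMIs in dividing cells over both libraries, and from replicate 2 alone, with 0.1 CPM added, ABCB11 gave 1.501 against 2.35 from both. The comparisons share sums, so they are not independent of each other.

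**Figure D2:**
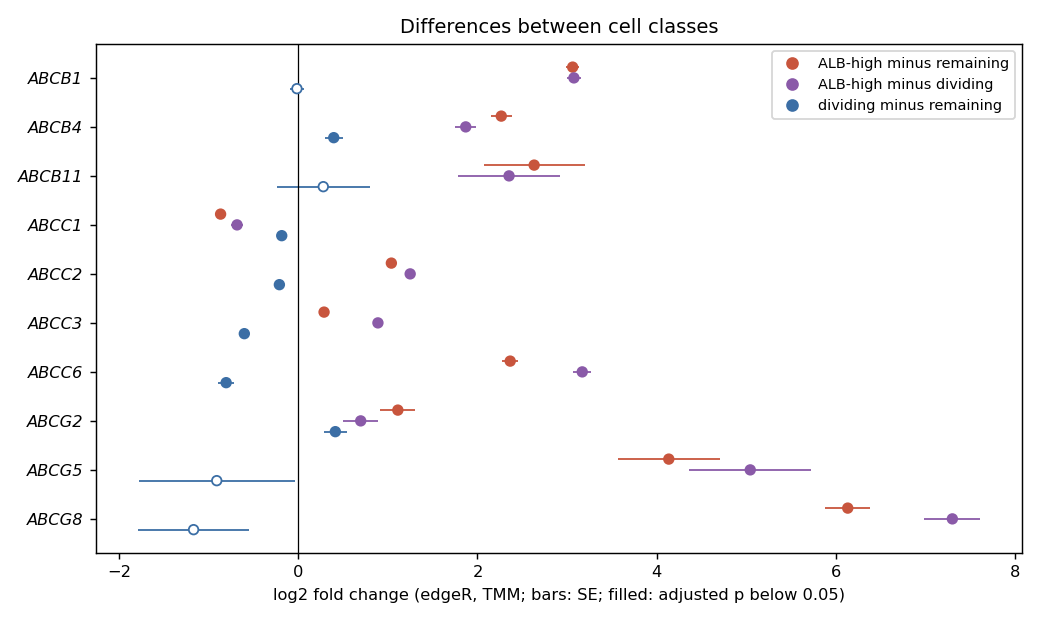
Fitted log2 fold change of each pump in the 3 class comparisons, with bars for 1 SE and filled points where edgeR's adjusted p was below 0.05. ABCC1 lies left of 0 in all 3 comparisons, and ABCB1 is near 0 only for dividing minus remaining cells (-0.01).

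The share of cells with a transcript differed by class both for sparser pumps and for pumps found across classes. After each cell was thinned to 5000 UMIs, ABCB1 was detected in 41.4% and 34.3% of ALB-high cells, 6.63% and 7.10% of remaining cells and 8.27% and 6.15% of dividing cells. At full depth these were 76.7% and 62.5%, 19.6% and 14.1%, and 25.2% and 15.9%. ABCC6 was detected after thinning in 31.3% and 27.7% of ALB-high cells and 7.20% and 6.77% of remaining cells. ABCC3 did not separate ALB-high from remaining cells: 82.4% and 82.4% against 82.1% and 79.9% after thinning. Dividing cells had a UMI of ABCC3 in 64.6% and 68.1%, below both. ABCC1 was found in 21.1% and 20.2% of ALB-high cells against 34.5% and 34.5% of remaining cells. After thinning, ABCC2 had a UMI in 66.8% and 62.8% of ALB-high cells and 40.0% and 40.9% of remaining cells. In dividing cells its shares were 36.4% and 35.6%.

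ABCG8 was detected in 8.20% and 7.49% of thinned ALB-high cells, and in 21.0% and 11.8% at full depth. In dividing cells, with higher or like median depth (20834 and 12137 UMIs against 20256 and 12103), the full-depth shares were 0.209% and 0.187%. Ambient RNA was not subtracted, and no class is known to lack the other pumps, so its part in their low shares was not tested. At full depth, ABCG5 had a UMI in 4.67% and 1.96% of ALB-high cells and in 2 of 1435 and 1 of 1606 dividing cells. Shares and intervals cover counting error only. A mean of 2.70 and 2.53 of the 10 pumps had a UMI per thinned ALB-high cell, against 1.75 and 1.74 per remaining cell and 1.51 and 1.498 per dividing cell. At least 4 pumps were detected in 24.6% and 20.5% of ALB-high cells and in 3.00% and 2.72% of remaining cells.

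**Figure D3:**
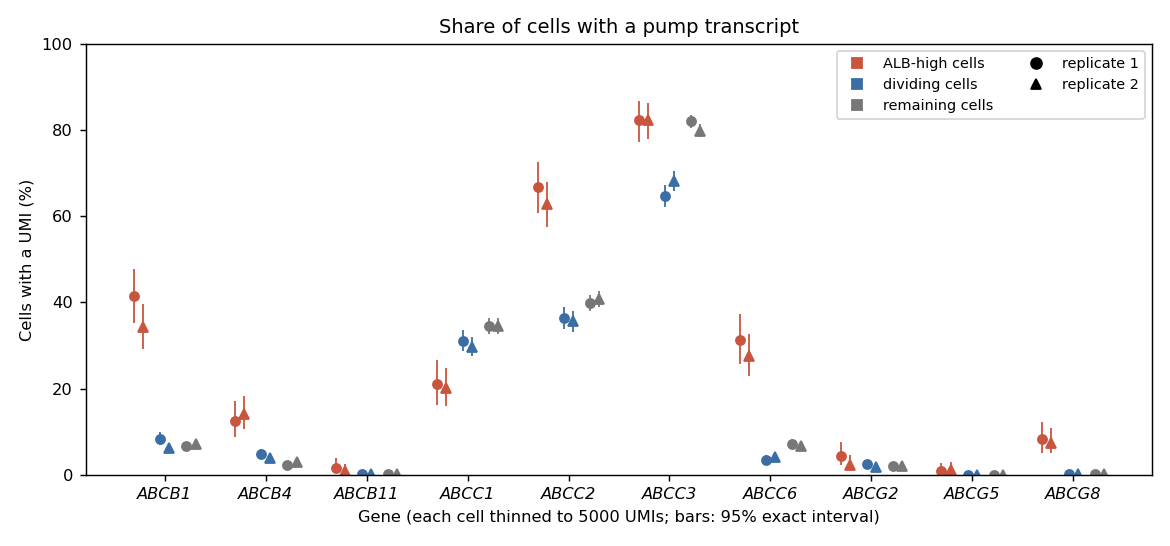
Percent of cells with at least 1 UMI of each pump after thinning every cell to 5000 UMIs, by class and library, with exact 95% intervals. ABCC3 reaches 82.4% in ALB-high cells and is nearly as frequent in remaining cells, while ABCB1 falls from 41.4% and 34.3% to under 10%.

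Along ALB level, among cells under the dividing threshold, the pumps followed different courses. Cells were put in 6 bands from 0 to 1 up to 150 or more UMIs of ALB per 10000. ABCB1 rose at every step in both libraries: 11.7, 18.7, 33.0, 41.3, 93.8 and 173 CPM in replicate 1, and 10.6, 13.5, 33.7, 42.3, 73.5 and 149 CPM in replicate 2. Part of this rise therefore lay below the ALB-high threshold. ABCC2 also rose at every step, from 112 to 246 CPM and from 111 to 235 CPM, and ABCB4 from 5.51 to 38.9 CPM and from 5.54 to 41.9 CPM. ABCC6 went from 11.4 to 92.7 CPM and from 12.3 to 79.1 CPM.

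ABCG8 had a different course, with most of its rise in the last step. It was at 4.00 and 6.15 CPM at 50 to 150 UMIs of ALB per 10000 and at 35.0 and 28.7 CPM at 150 or more, with no more than 0.750 CPM in any lower band. ABCG5 was at 4.28 and 3.30 CPM in the top band and at or under 0.585 CPM in every other. ABCC1 fell from 91.5 to 37.4 CPM and from 87.4 to 36.3 CPM, with most of the drop above 15 UMIs of ALB per 10000. ABCC3 had no single direction: 425, 457, 462, 433, 416 and 562 CPM in replicate 1, and 423, 463, 461, 413, 392 and 573 CPM in replicate 2. ABCG2 stood at 3.80 and 3.29 CPM in the lowest band and 8.92 and 6.12 CPM in the top band. The bands also differed in median mitochondrial share, from 8.72% to 14.3% and from 8.79% to 14.6%, and in median depth, from 16049 to 20256 and from 9770 to 12126 UMIs; their part in these courses was not tested.

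**Figure D4:**
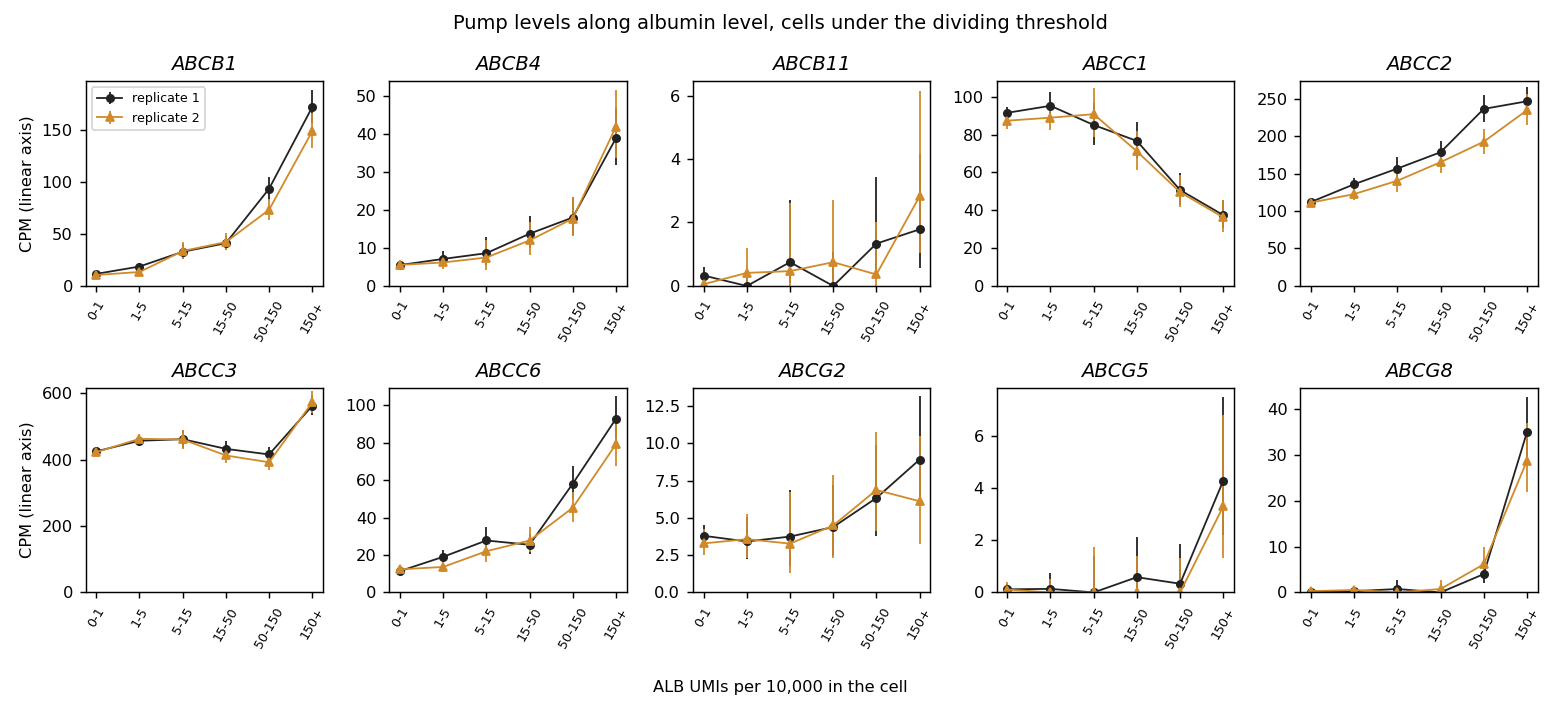
Level of each pump (CPM, linear axes that differ between panels) in 6 bands of ALB level among cells under the dividing threshold, by library, with 95% counting intervals. ABCB1 climbs from 11.7 to 173 CPM in replicate 1 over all bands, ABCG8 rises mainly in the last, ABCC1 falls, and ABCC3 dips before the top band.

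Likeness between genes was described over pools of cells. Cells of each library were split by ALB band, mesenchymal score tercile and dividing class into 27 and 26 pools of at least 20 cells, and Pearson's r of log2(CPM + 5) was taken over the pools. The pools share libraries, and the ALB bands favour genes that follow ALB. ABCB1 and ABCC6 had r of 0.905 and 0.893, ABCB1 and ABCC2 0.883 and 0.854, and ABCG5 and ABCG8 0.797 and 0.769. ABCG8 was about as close to ABCB4 (0.774 and 0.817) and to ABCB1 (0.780 and 0.762), which lie on another chromosome. ABCB1 and ABCC1 had -0.750 and -0.612. The genes most like ABCB1 were RBP4 (retinol-binding protein), AMBP and AGMO, with lower r of the libraries at 0.968, 0.961 and 0.957. Those most like ABCC6 were CRLS1, CYP3A5 and AMBP (0.916, 0.915 and 0.911), and those most like ABCC2 were HPD, PTGR1 and COL18A1 (0.927, 0.905 and 0.898). ABCB4 had APOA1, SORBS2 and RIDA (0.866, 0.839 and 0.839). ABCC1 had RPS10, SNRPD2 and RPS27A (0.805, 0.794 and 0.793), of which RPS10 and RPS27A encode ribosomal proteins. ABCC3 had AL691420.1, PTPRM and AC099520.1 (0.881, 0.869 and 0.862).

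Within the remaining cells, pumps were compared along 5 gene scores, 3 of which (NRF2 targets, hypoxia and p53 targets) stand for stress responses named in the study's design. Cells of each library were cut into terciles by the summed level of a gene list holding no pump, and high and low terciles were compared by edgeR's quasi-likelihood test with Benjamini-Hochberg adjustment. Only 7 members passed the filter on low counts there: ABCB11, ABCG5 and ABCG8 did not. Cells high in NRF2 targets (13 genes, such as NQO1 and GCLM, of the response to oxidative stress) had more ABCC1, ABCC2, ABCC3 and ABCG2 and less ABCB1 and ABCC6. Over all genes tested, 13% were called higher and 10.7% lower, 23.6% in all. ABCC1 rose from 80.9 to 104 CPM in replicate 1 and from 71.6 to 105 CPM in replicate 2 (log2 fold change 0.49, SE 0.05, edgeR adjusted p = 1.18e-11). ABCC2 rose from 107 to 148 CPM and from 106 to 144 CPM (0.51, SE 0.04, edgeR adjusted p = 1.27e-14). For both genes the high tercile lay above the low one in both libraries. Both are known NRF2 targets, but the part of NRF2 was not tested, and both also rose with the p53 target score described below.

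ABCB1 went the other way with the NRF2 score, from 20.6 to 10.7 CPM and from 18.9 to 12.9 CPM (log2 fold change -0.73, SE 0.11, edgeR adjusted p = 1.11e-06). ABCC3 rose by 0.18 (SE 0.03, log2). ABCG2, at 0.78 (SE 0.22, edgeR adjusted p = 0.0072), and ABCC6, at -0.34 (SE 0.12, edgeR adjusted p = 0.0277), lost their calls with thinned cells (adjusted p = 0.0800 and 0.0801) and with DESeq2. Of 13 hepatocyte markers tested, 9 were lower in the high tercile, and mean ALB was 457 and 542 CPM in the low tercile against 216 and 254 CPM in the high tercile; its part in the ABCB1 difference was not tested.

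The S-phase score (14 genes of DNA replication) moved all 7 tested members, against 51.6% of all genes, 27% of them higher and 24.7% lower. ABCG2 had the largest change of the 7, from 2.57 to 5.30 CPM and from 1.51 to 5.54 CPM (log2 fold change 1.37, SE 0.24, edgeR adjusted p = 3.88e-06). ABCB4 was also higher (0.47, SE 0.17, edgeR adjusted p = 0.0157), but not with thinned cells (adjusted p = 0.141). ABCC6 was lower by edgeR, from 17.5 to 9.93 CPM and from 19.0 to 8.87 CPM (-0.89, SE 0.12), and ABCC3 fell from 482 to 365 CPM and from 504 to 353 CPM (-0.41, SE 0.03). ABCB1, ABCC1 and ABCC2 were lower, with log2 fold changes of -0.34, -0.20 and -0.30. With DESeq2, ABCB1, ABCB4 and ABCC1 were not called. Median depth rose with this score, from 14291 to 18882 and from 8338 to 11140 UMIs, and of 13 hepatocyte markers 11 were lower; the part of either was not tested.

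With the mesenchymal score (5 genes, such as COL3A1 and LUM), ABCB1, ABCC1 and ABCC2 were lower in the high tercile, and 10.6% of all genes were called lower and 11.7% higher, 22.3% in all. ABCB1 went from 19.2 to 10.5 CPM and from 17.5 to 11.0 CPM (log2 fold change -0.80, SE 0.12, edgeR adjusted p = 5.90e-07). ABCC2 went from 147 to 93.8 CPM and from 135 to 96.5 CPM (-0.59, SE 0.05). ABCC1 gave -0.16 (SE 0.05, edgeR adjusted p = 0.0251) and lost its call under 4 of the alternatives, such as the fit without the library block (adjusted p = 0.0626). In the low tercile 98.9% and 100% of cells had no UMI of the score genes, and 12 of 13 hepatocyte markers were lower in the high tercile.

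The p53 target score (16 genes, such as CDKN1A and MDM2) went with ABCC2, from 106 to 148 CPM and from 109 to 139 CPM (log2 fold change 0.41, SE 0.04, edgeR adjusted p = 1.94e-09), and with ABCC1 (0.15, SE 0.05, edgeR adjusted p = 0.0194). There 11.7% of all genes were called higher and 13.3% lower, 25% in all. ABCC1 lost that call under 4 of the alternatives. In the high tercile of the p53 score 8 of 13 hepatocyte markers were lower and 2 higher; their part was not tested. The hypoxia score (14 genes, such as CA9 and VEGFA) went with ABCC1 (0.23, SE 0.05, edgeR adjusted p = 0.00102) and ABCC3 (0.17, SE 0.03, edgeR adjusted p = 2.56e-05), where 4.24% of all genes were called higher and 4.95% lower, 9.2% in all. ABCC1 lost the hypoxia call with thinned cells (adjusted p = 0.0776) and with DESeq2 (adjusted p = 0.153). In the high tercile of the hypoxia score 9 of 10 proliferation markers were lower, 7 of 13 hepatocyte markers were higher and 4 of 10 mesenchymal markers were higher; their part was not tested.

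**Figure D5:**
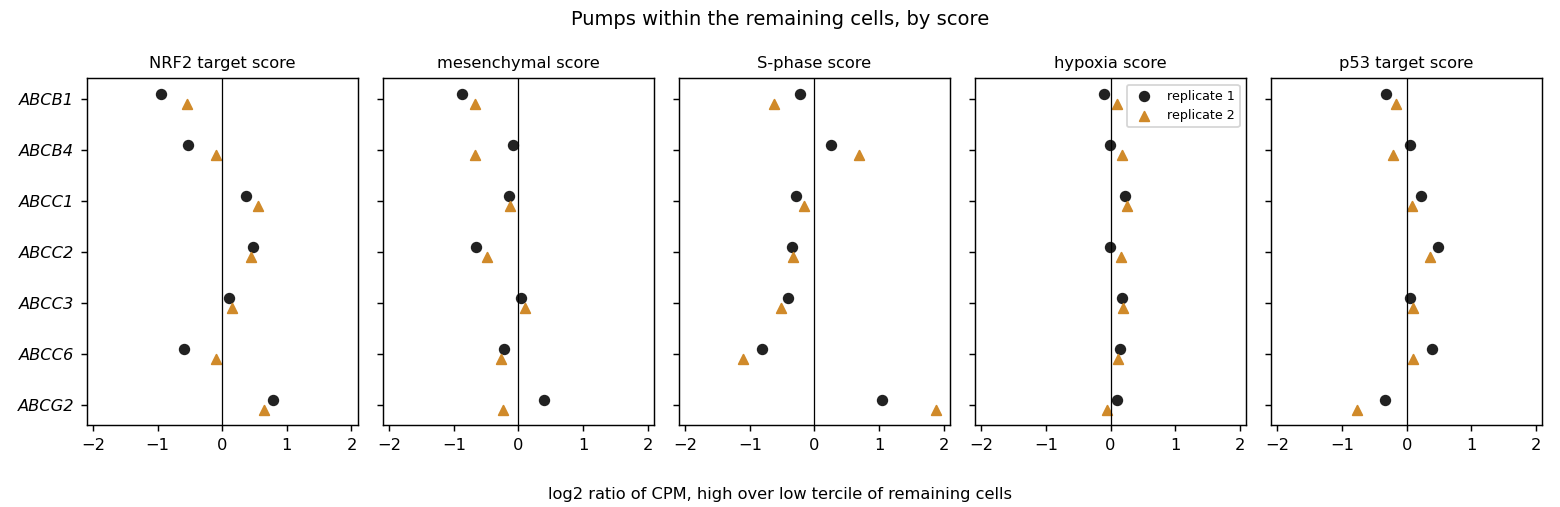
Log2 ratio of CPM between the high and low tercile of remaining cells for 5 scores and the 7 pumps tested, 1 point per library. ABCG2 lies farthest right for the S-phase score, ABCC1 and ABCC2 lie right of 0 and ABCB1 left of 0 for the NRF2 target score, and the hypoxia points lie close to 0.

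The regulators and partners of the pumps also differed between ALB-high and remaining cells, by edgeR's quasi-likelihood test. Of 21 regulators, 19 were tested, 10 were higher and 5 lower, where 23.9% of all genes were called higher and 24.2% lower, 48.1% in all. NR1H4 (FXR), the bile acid receptor known to activate ABCB11, was at 158 and 135 CPM in ALB-high cells and 4.83 and 5.64 CPM in remaining cells (log2 fold change 4.98, SE 0.10). NR1I2 (PXR), the xenobiotic receptor known to activate ABCB1, was at 10.9 and 8.19 CPM against 1.496 and 1.62 CPM (2.78, SE 0.23). The 2 regulators that did not pass the filter, named after their values were seen, were NR0B2 (SHP), at 0.345 and 0 CPM in ALB-high cells, and NR1I3 (CAR), at 0 and 0.205 CPM. ABCB11 stood at 1.55 and 1.43 CPM in ALB-high cells, 5.77 times its level in remaining cells over both libraries. The part of NR1H4 in the ABCB11 level was not tested.

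Of 38 other ABC transporters, 34 were tested, 12 were higher and 5 lower. Of all genes 23.9% were called higher and 24.2% lower, 48.1% in all. These all-gene shares also stand beside the SLC, bile acid and scaffold counts of ALB-high against remaining cells below. ABCA6 had a log2 fold change of 4.14 (SE 0.37) and ABCA10 one of 2.15 (SE 0.20). ABCA1, the cholesterol exporter, was at 99.8 and 89.2 CPM against 25.02 and 22.7 CPM (log2 fold change 2.13, SE 0.07). Of 15 SLC uptake and exchange transporters 10 were higher and 2 lower, with SLC22A7 at 6.73, SLC22A9 at 5.66 and SLC2A2 at 3.05 (log2 fold change). Of 11 bile acid synthesis and conjugation genes 10 were higher and none lower. BAAT, which conjugates bile acids, was at 81.0 and 71.2 CPM against 2.37 and 2.41 CPM (5.16, SE 0.11). Genes of these lists may have passed the filter only through the ALB-high sums, which builds in a difference, and this was not examined per gene. In the smaller sums of the mesenchymal terciles of remaining cells, 7 of the 11 bile acid genes and 10 of the 15 SLC transporters passed. The canalicular scaffold list did not lean to either side, with 9 of 21 higher and 9 lower, among them PDZK1 (log2 fold change 3.07) and CLDN1 (2.95). Between dividing and remaining cells, 11 of the 19 regulators were lower and 5 higher, with NR1H4 at -1.57, and 6 of the 11 bile acid genes were lower and 0 higher. Of all genes 24.8% were called higher and 23.9% lower there, 48.7% in all.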

How the data were processed

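Droplet 3′ single-cell libraries of vehicle-treated HepaRG were analysed as 2 samples of 1 group. The values are UMI counts of each gene in each barcode, as deposited, which the authors made with Cell Ranger (7.0.0, per the file headers), and the submitters' processing notes name STAR and GRCh38. Which annotation was used, whether intronic reads were counted and how barcodes were selected: not given in the sources used here. All 12 antibody features held 0 UMIs.

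Barcodes with at least 500 genes, 1000 UMIs and at most 25% mitochondrial UMIs were kept. No doublet caller was run; leaving out the 8% of cells with the most UMIs stood in for one. Counts were summed per library and class and fitted with edgeR 4.0.16 (R 4.3.3: filterByExpr, TMM, quasi-likelihood test, library as a block, threshold 0.05, Benjamini-Hochberg over all genes tested); all 3 classes share 1 fit. DESeq2 1.42.0 was an alternative. CPM are summed UMIs scaled to 1000000. For shares, cells were thinned to 5000 or, as an alternative, 8000 UMIs. On simulated counts for ALB-high minus remaining (19147 genes), 50 genes were altered at each size, of which edgeR found 29 at 1.5-fold, 37 at 2-fold, 42 at 4-fold and 46 at 8-fold, with 8 false calls. All other genes had the same level in every class there. The simulation therefore does not give the error of the real comparison, where 48.1% of genes were called.

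All 10 members were named, with up to 3 called genes per other list, by size of change at 5 CPM or more. The members, lists and scores were chosen with earlier results of these data known. The genes most like a member were ranked by the lower r of the libraries, among genes at 20 CPM or more, where that r was at least 0.7. Positions came from GENCODE 29; promoter sequences from RefSeq (GRCh38.p14).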

Additional observations from a re-analysis of the deposited data

How the results depend on the processing

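Of 818 values of member log2 fold changes under the alternatives, none reversed a called direction, 28 lost a call and 3 gained one. In ALB-high minus remaining cells, 10 members were called under each alternative that gives a test except thinning, with 8, where ABCG2 was lost and ABCG5 did not pass the filter. Those counts include ABCB11, ABCG5 and ABCG8, whose entry through the ALB-high sums builds in a difference. Of the 7 other members, only ABCG2 lost its call, with thinned cells. Thinning to 5000 UMIs lowered the genes called from 9203 to 5971, with 15885 tested. In dividing minus remaining cells DESeq2 called 3 members (6 with edgeR) and 4415 genes (9329). DESeq2 and thinning called 1118 and 1944 genes for the NRF2 score (3994), 1227 and 2120 for the mesenchymal score (3791), 339 and 837 for the hypoxia score (1558), and 1349 and 2296 for the p53 score (4260). For the S-phase score DESeq2 called 4 members (7) and 4614 genes (8828). Hypoxia members were 1 with DESeq2 and 1 with thinning (2). p53 members were 1 with no filter on low counts, 1 with DESeq2 and 1 with no replicate block (2). Without the replicate block, that is without the library as a term, 911 genes were called for hypoxia, 9104 for ALB-high minus remaining and 8908 for dividing minus remaining. Fewer genes were tested after thinning, and the causes of these differences in calls were not tested. From 1 library alone, with 0.1 CPM added, ABCG5 in ALB-high minus dividing cells gave 3.46 and 3.92 (5.04 from both), ABCB11 gave 1.501 without replicate 1 (2.35), and ABCG8 gave 6.14 and 6.70 (7.30). The alternatives with totals without mitochondrial genes and with library totals in place of TMM were chosen after seeing the data. ABCB11, ABCG2, ABCG5 and ABCG8 are limited by depth.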
